A study of Mus musculus with 4 samples.

Results

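Multiciliated cells carry many motile cilia, and their fate is set by a small group of transcription factors, co-regulators and centriole genes. Of these, 10 genes were followed here, namely *Foxj1*, *Rfx2*, *Rfx3*, *Myb*, *Trp73*, *Gmnc*, *Mcidas*, *Ccno*, *Deup1* and *Cdc20b*. They were taken as a list of named genes by their known roles, with earlier results of these data known, and they are 10 of the 24421 genes with a deposited expression value in TPM, a share of transcripts corrected for length and scaled to the same total in each library. All 10 were in the data, with *Deup1* under its older symbol *Ccdc67*.

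The data are RNA-seq of cells dissociated from the mouse main olfactory epithelium (MOE) and separated by FACS on a fluorescent reporter, in a study of the 2 enhancers that drive the trace amine-associated receptor (*Taar*) genes. The mice carried a PiggyBac transgene in which TAAR enhancer 1 drove GFP, or TAAR enhancer 2 drove tdTomato, from the minimal promoter of the mouse *Hsp68* gene. There were 4 groups with 1 library each, namely cells without and with GFP from TAAR enhancer 1-GFP mice, and cells without and with tdTomato from TAAR enhancer 2-tdTomato mice. Reporter-negative cells therefore carried the same transgene as the reporter-positive cells of their line. Each line descends from 1 founder, so an effect of an enhancer cannot be told apart from an effect of the insertion site. The sample labels give the strain as C57BL/6 and the methods name C57BL/6J eggs for the injection, while the reporting summary puts the lines of the study on a mixed background of C57BL/6J and another strain. The labels describe all mice as adult, while the reporting summary gives younger postnatal ages.

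During the formation of a multiciliated cell, the geminin-related proteins GEMC1 (*Gmnc*) and multicilin (*Mcidas*) act early and, with E2F4 or E2F5 and their DP partners, switch on genes for making centrioles. The cell then builds a large number of centrioles, in part on deuterosomes, which become the basal bodies of the cilia, while FOXJ1 and the RFX factors switch on the genes of the motile cilium. In the nose, multiciliated cells line the respiratory epithelium that adjoins the olfactory epithelium, and olfactory sensory neurons (OSNs) also carry several cilia each, which are largely immotile.

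Since every group is 1 library, the spread between replicates is unknown and no difference was tested. TPM sums to 1000000 in each library, so read depth cannot be recovered from it, and no interval or detection limit was calculated. Fold changes are differences of log2(TPM + 1), a scale on which genes with low TPM values appear to differ less than they do, and positive values mean higher in reporter-positive cells. A gene is counted as higher or lower here when it differed by at least 2-fold on this scale. Between 15096 and 16840 genes were above 0 TPM in a library. In GFP-positive cells 31.5% of all TPM came from the 10 most abundant genes, compared with 5.72% to 9.44% in the other 3 libraries. The median log2 fold change of all genes above 0 TPM in either library was -0.74 in the GFP line and -0.19 in the tdTomato line.

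The promoters of the regulators were examined for the DNA motifs of the factors in the list, since RFX and forkhead factors are known to act on genes of this program. Promoter windows ran from 250 bases before to 50 bases after the start site in RefSeq (GRCm38.p6), and 12 windows were found for 9 of the 10 genes, all except *Foxj1*. The letters GTTGCC, one arm of the site bound by RFX factors, occurred on either strand in 6 of the 12 windows, each from a different gene, and in 12.5% of all 32851 windows. The 6 stretches of 30 bases below are shown because they hold these letters, which are in capitals, as GTTGCC or as the other strand GGCAAC. Each is written 5′ to 3′ in the direction of its gene.
*Ccno*, chr13:112987571-112987600, plus strand: acccgggctgcgGTTGCCacggtgacgaca
*Mcidas*, chr13:112993661-112993690, plus strand: gggggaagccagGTTGCCaggttggttaac
*Deup1*, chr9:15627908-15627937, minus strand: ccgcgtctccatGGCAACccactgggaacc
*Rfx2*, chr17:56831107-56831136, minus strand: agcttggtaaccGTTGCCgggcgcaacgcc
*Rfx3*, chr19:28011118-28011147, minus strand: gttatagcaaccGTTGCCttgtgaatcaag
*Trp73*, chr4:154139856-154139885, minus strand: tccaggcgaggaGGCAACgctgcagcccag

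Counted from the start site as position 0, the letters began at position -219 in *Ccno*, -195 in *Mcidas*, -116 in *Rfx2* and -79 in *Deup1*. They lay after the start site in *Rfx3* and *Trp73*, from position 31 and from position 2. The longer form GTTGCCNNG, which contains the first motif and takes in a G of the second arm, was matched in 5 of these genes, all except *Trp73*, and in 1644 of the 32851 windows. *Rfx2* and *Rfx3* shared the run AACCGTTGCC, which 8 of the 32851 windows held. In both, a palindrome of the MYB site, AACNGTT, overlaps the RFX letters, and it occurred in 4.45% of all windows. The forkhead letters GTAAACA were found in 1 window, that of *Myb*, and in 3.65% of all windows. None of the E2F sites searched, TTTGGCGC, TTTCCCGC and TTTCGCGC, was matched in the 12 windows, and they occurred in 0.514%, 1.07% and 0.323% of all windows. Binding of these factors was not measured in these libraries, and a match describes the letters only.

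*Foxj1*, the forkhead factor that switches on motile cilium genes, had the highest TPM of the 10 genes in every library. In the GFP line its level was 126.3 TPM in negative and 302.2 TPM in positive cells, and in the tdTomato line it was 114.3 TPM in negative and 975.5 TPM in positive cells. Both reporter-positive libraries were above both negative libraries, and the negative libraries were close to each other. The ratio of positive to negative cells was 2.39 in the GFP line and 8.53 in the tdTomato line, with log2 fold changes of 1.25 and 3.08. With median-ratio scaling these log2 fold changes were 2.13 and 3.23. In tdTomato-positive cells *Foxj1* was above 99.5% of the genes with a value above 0, compared with 88.7% in tdTomato-negative cells. Of the summed TPM of the 10 regulators, *Foxj1* made up 43.3% and 63.9% in negative and positive cells of the GFP line, and 39.9% and 71.3% in those of the tdTomato line.

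**Figure D1:**
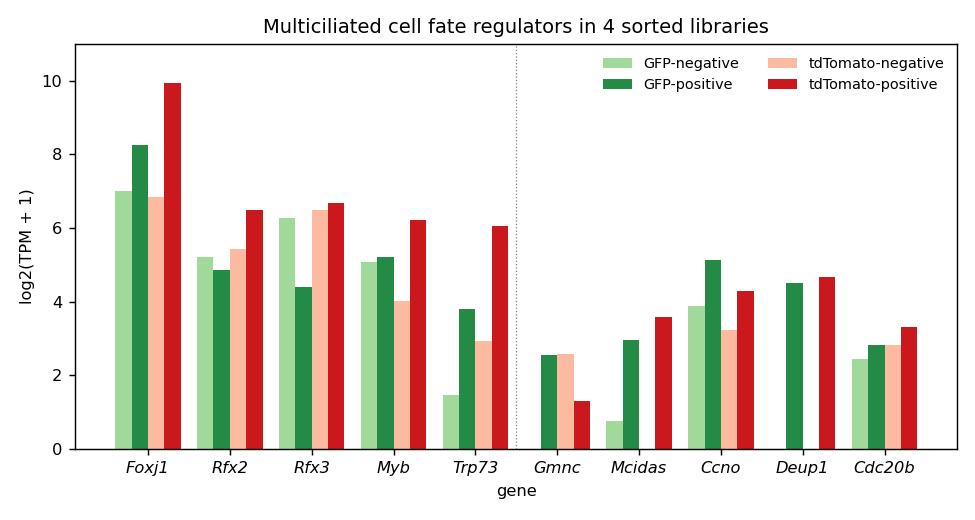
Level of each of the 10 regulators in the 4 libraries, as log2(TPM + 1) on the y axis, with 1 bar for each library and the DNA-binding factors left of the dotted line. *Foxj1* has the tallest bar in every library, *Deup1* has a bar in both reporter-positive libraries only, and *Rfx3* is lowest in GFP-positive cells.

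The RFX factors, which bind cilium gene promoters together with FOXJ1, differed from *Foxj1* in the GFP line. *Rfx3* was at 75.9 TPM in negative and 20.05 TPM in positive cells of the GFP line, and at 88.9 TPM in negative and 100.9 TPM in positive cells of the tdTomato line. GFP-positive cells were the low library, 3.78-fold below GFP-negative cells, whereas in the tdTomato line the ratio of positive to negative cells was 1.14. *Rfx2* was at 35.9 and 27.9 TPM in GFP-negative and GFP-positive cells, and at 42.2 and 89.5 TPM in tdTomato-negative and tdTomato-positive cells. On the log2 scale *Rfx2* was at -0.35 in the GFP line and 1.07 in the tdTomato line. The value in the GFP line changed its sign with the scaling of the libraries, to 0.51 with median-ratio scaling and 0.14 after the genes with the highest TPM values were removed, while *Rfx3* stayed lower in GFP-positive cells under every setting tried, between -1.91 and -1.01.

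*Trp73* encodes the p73 factor that acts upstream of *Foxj1* in multiciliated cells. It was at 1.73 and 12.9 TPM in negative and positive cells of the GFP line, and at 6.68 and 65.0 TPM in those of the tdTomato line. The ratios of positive to negative cells were 7.46 and 9.72, and the latter was the largest ratio among the 8 regulators above 0 TPM in both libraries of the tdTomato line. The log2 fold changes were 2.35 and 3.10 as deposited, and 3.10 and 3.22 with median-ratio scaling. The values are totals for the gene, so the p73 isoforms with and without the transactivation domain could not be separated.

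*Myb*, a factor of proliferating progenitors that is also present early in multiciliated cell formation, was at 32.9 and 36.0 TPM in GFP-negative and GFP-positive cells. In the tdTomato line it was at 15.1 TPM in negative and 73.3 TPM in positive cells, a ratio of 4.85, compared with 1.10 in the GFP line. With median-ratio scaling the log2 fold change of *Myb* was 0.99 in the GFP line and 2.34 in the tdTomato line. *Myb* lies on chromosome 10 from 21124935 to 21160984 on the minus strand (GENCODE M21, GRCm38), 2759371 bases from the start of *Taar1*, the nearest end of the *Taar* cluster. An antisense gene, *Gm26577*, shares 559 exonic bases with *Myb*, and *Trp73os* shares 280 with *Trp73*. The methods name Smart-seq2, which keeps no strand information, for sorted cells, while the labels name a VAHTS kit without saying whether strand was used, so reads of the antisense genes cannot be told apart from reads of *Myb* and *Trp73*.

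Among the co-regulators, *Mcidas* was at 0.677 TPM in negative and 6.81 TPM in positive cells of the GFP line, a ratio of 10.1. In the tdTomato line it was listed at 0 in negative cells and was at 11.1 TPM in positive cells. Both reporter-positive libraries were thus above both negative libraries, at levels far below that of *Foxj1*. *Gmnc*, which acts upstream of *Mcidas*, was listed at 0 in negative and at 4.85 TPM in positive cells of the GFP line, and was at 5.02 TPM in negative and 1.45 TPM in positive cells of the tdTomato line. It was the only regulator that was higher in the negative library of the tdTomato line, by 3.47-fold, and it was the regulator with the lowest level in both reporter-positive libraries.

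*Ccno* and *Deup1* serve the amplification of centrioles, *Deup1* as a core protein of the deuterosome. *Deup1* was listed at 0 in both negative libraries, at 21.6 TPM in GFP-positive cells and at 24.4 TPM in tdTomato-positive cells. It was the only regulator listed at 0 in both negative libraries, so that no ratio is given, and its 2 values in positive cells lay close together. *Ccno*, a cyclin-related protein, was at 13.6 and 34.1 TPM in negative and positive cells of the GFP line and at 8.32 and 18.6 TPM in those of the tdTomato line. The ratios were 2.51 and 2.23 as deposited, while with median-ratio scaling the log2 fold change in the GFP line was 2.12 in place of 1.27, and *Ccno* was the only regulator with its highest level in GFP-positive cells. *Cdc20b* was at 4.40 and 6.08 TPM in the GFP line and at 6.01 and 8.98 TPM in the tdTomato line, with ratios of 1.38 and 1.49.

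*Ccno*, *Mcidas* and *Cdc20b* are neighbors on the plus strand of chromosome 13. In GENCODE M21 (GRCm38) *Ccno* runs from 112987802 to 112990777, *Mcidas* from 112993845 to 113000394 and *Cdc20b* from 113035111 to 113091195. The gap between *Ccno* and *Mcidas* is 3067 bases and that between *Mcidas* and *Cdc20b* is 34716 bases. In both lines all 3 had a larger TPM in positive than in negative cells, by 1.38-fold or more where the negative library was above 0. So had 5123 of 17963 genes in the GFP line and 6751 of 16752 in the tdTomato line. The microRNA genes *Mir449c*, *Mir449b* and *Mir449a* lie in introns of *Cdc20b* and were listed at 0 in all 4 libraries. The methods name no preparation for small RNA, so the listing at 0 does not show that these microRNAs were absent. *Gpx8*, on the opposite strand within *Cdc20b* with no shared exonic bases, was at 6.52, 46.3, 8.15 and 20.8 TPM in GFP-negative, GFP-positive, tdTomato-negative and tdTomato-positive cells. *Cdc20b* shares 197 exonic bases with the antisense gene *4930563N14Rik*. The other regulators lie apart from these and from each other, all on minus strands in the same annotation. *Foxj1* runs from 116330704 to 116335399 on chromosome 11, *Rfx2* from 56775897 to 56831013 on chromosome 17 and *Rfx3* from 27761721 to 28011166 on chromosome 19. *Trp73* runs from 154056253 to 154140208 on chromosome 4, *Deup1* from 15559864 to 15627933 on chromosome 9 and *Gmnc* from 26913553 to 26991652 on chromosome 16.

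Of the 10 regulators, 6 were at least 2-fold higher in GFP-positive than in GFP-negative cells (*Foxj1*, *Mcidas*, *Gmnc*, *Ccno*, *Trp73* and *Deup1*), compared with 12.8% of the 17963 genes above 0 TPM in either library. Only *Rfx3* was at least 2-fold lower, compared with 40.5% of these genes, and the other 3 lay within 2-fold. In the tdTomato line 7 of the 10 were higher (*Foxj1*, *Rfx2*, *Mcidas*, *Ccno*, *Myb*, *Trp73* and *Deup1*), compared with 16.2% of 16752 genes, and 1, *Gmnc*, was lower, compared with 21.9%. The 5 regulators higher in both lines were *Foxj1*, *Mcidas*, *Ccno*, *Trp73* and *Deup1*, while 7.77% of the 16298 genes above 0 TPM in both lines were. The median log2 fold change of the 10 regulators was 1.26 in the GFP line and 1.64 in the tdTomato line. Without the 2 regulators listed at 0 in a library of the line, 4 and 5 of 8 were higher, compared with 10.5% and 13.8% of all genes above 0 TPM in both libraries of the line, and the medians were 0.82 and 1.07. With a pseudocount of 10, which weighs down genes with few TPM, 2 of 10 were higher in the GFP line, compared with 5.52% of all genes. The share of all genes that was higher in GFP-positive cells depended on the scaling, and with median-ratio scaling 20.4% were higher and 19.6% lower, while 7 of the 10 regulators were higher, *Cdc20b* being added at 1.15, and 1 was lower.

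**Figure D2:**
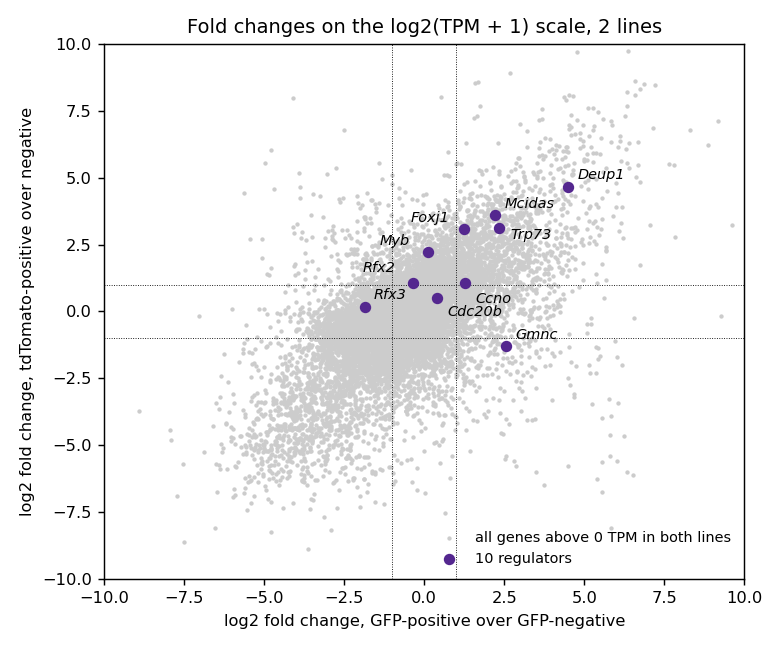
Log2 fold change of positive over negative cells in the GFP line (x axis) and in the tdTomato line (y axis), for the 10 regulators (large points) and all genes above 0 TPM in both lines (small points), with dotted lines at 2-fold. The 5 regulators in the upper right field are *Foxj1*, *Mcidas*, *Ccno*, *Trp73* and *Deup1*, and *Gmnc* lies in the lower right field.

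The order of the regulators by TPM differed between the libraries. In both negative libraries and in tdTomato-positive cells, *Rfx3*, *Rfx2* and *Myb* followed *Foxj1*, in this order. In GFP-positive cells *Myb*, *Ccno*, *Rfx2* and *Deup1* followed *Foxj1*, and *Rfx3* came after *Deup1*. Several neighbors lay close together, such as *Deup1* at 21.6 TPM and *Rfx3* at 20.05 TPM in GFP-positive cells, and without replicates the order of such pairs could not be tested. The 10 regulators summed to 291.4 and 472.6 TPM in negative and positive cells of the GFP line, and to 286.5 and 1369 TPM in those of the tdTomato line.

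The reporter-positive libraries of the 2 lines are set side by side here by the role of the regulators, a division made with the values known. For *Foxj1*, *Rfx2*, *Rfx3*, *Myb* and *Trp73*, log2(TPM + 1) was between 1.01 and 2.28 higher in tdTomato-positive than in GFP-positive cells, with a median of 1.69. For *Gmnc*, *Mcidas*, *Ccno*, *Deup1* and *Cdc20b* the same difference was between -1.26 and 0.63, with a median of 0.17. The summed TPM of the DNA-binding factors was 399.1 in GFP-positive and 1304 in tdTomato-positive cells, of which *Foxj1* held 302.2 and 975.5, while that of the other 5 genes was 73.5 and 64.5. The median difference of the 17316 genes above 0 TPM in either reporter-positive library was 0.55. Of these genes 11895 had a larger and 5421 a smaller TPM in tdTomato-positive cells. The differences are of values as deposited and were not calculated with the other scalings. The lines differed in reporter, enhancer, insertion site and, by the reporting summary, age, and these cannot be told apart.

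**Figure D3:**
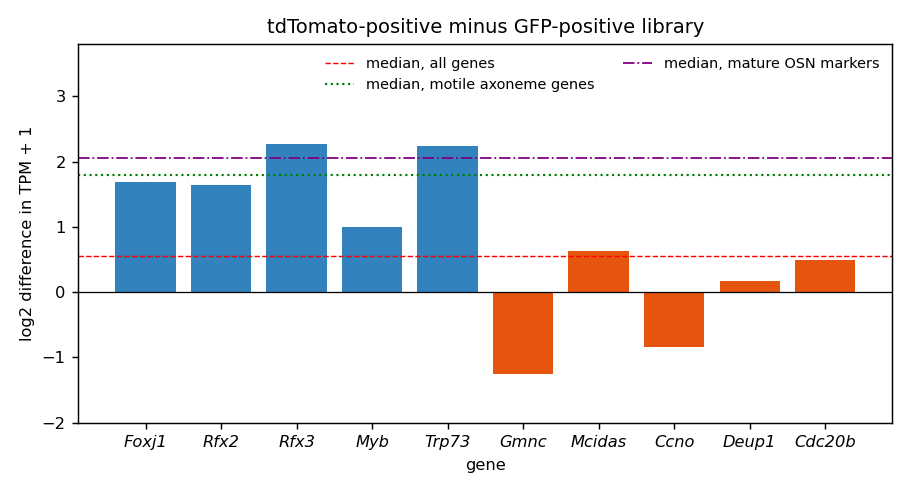
Difference in log2(TPM + 1) between tdTomato-positive and GFP-positive cells for each regulator, with DNA-binding factors in blue and the other regulators in orange. Lines mark the median of all genes (0.55), of 18 motile axoneme genes (1.80) and of 12 mature OSN markers (2.06), and the 5 blue bars end between 1.01 and 2.28.

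Multicilin and GEMC1 act through E2F4, E2F5 and the DP protein encoded by *Tfdp1*, and geminin, encoded by *Gmnn*, binds both. None of these 4 partner genes was at least 2-fold higher in the positive cells of either line. Among all genes 12.8% were higher in the GFP line and 16.2% in the tdTomato line. *E2f4* was at 75.7, 32.5, 76.3 and 62.6 TPM and *Tfdp1* at 102.4, 45.6, 87.2 and 84.0 TPM in GFP-negative, GFP-positive, tdTomato-negative and tdTomato-positive cells. Both were at least 2-fold lower in GFP-positive cells, as were 40.5% of all genes. With median-ratio scaling they lay within 2-fold, at -0.33 and -0.28 on the log2 scale. *E2f5* was at 12.7, 11.9, 27.7 and 35.3 TPM and *Gmnn* at 21.6, 22.6, 12.8 and 17.7 TPM in the same order.

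The paralogs of the regulators had counts and a median near those of all genes in the GFP line. Of 16 paralogs, 14 were above 0 TPM, *Rfx6* and *Rfx8* being listed at 0 in all 4 libraries, and the median log2 fold change was -0.89 in the GFP line and -0.15 in the tdTomato line. At least 2-fold higher were 1 of the 14 in the GFP line and 0 in the tdTomato line, and 6 and 4 were lower, compared with 12.8% and 16.2% of all genes higher and 40.5% and 21.9% lower. With median-ratio scaling 2 in place of 6 were lower in the GFP line, with a median of -0.07. *Trp63*, a relative of *Trp73* and a marker of horizontal basal cells, was the 1 higher paralog, at 3.70 and 20.2 TPM in negative and positive cells of the GFP line, and it was at 6.98 and 1.92 TPM in the tdTomato line. *Mybl1*, a relative of *Myb*, was at 13.5 and 2.87 TPM in negative and positive cells of the tdTomato line, where *Myb* itself was higher by 4.85-fold. *Cdc20*, the activator of the anaphase-promoting complex in mitosis, was at 13.1 and 0.0662 TPM in these cells, where *Cdc20b* was at 6.01 and 8.98 TPM. *Cep63*, the paralog of *Deup1* that acts at the parent centriole, was at 52.1, 31.4, 58.7 and 44.9 TPM in GFP-negative, GFP-positive, tdTomato-negative and tdTomato-positive cells, in contrast to the listing of *Deup1* at 0 in both negative libraries.

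Genes of the centriole assembly machinery, which the program of *Gmnc* and *Mcidas* makes use of, were counted in the same way. Of 16 genes, 3 were higher and 7 lower in GFP-positive cells, and 4 were higher and 3 lower in tdTomato-positive cells. The shares of all genes were 12.8% higher and 40.5% lower in the GFP line, near those of the list, and 16.2% and 21.9% in the tdTomato line. The median of the list in the GFP line was -0.92. With median-ratio scaling it was -0.12, and 3 were higher and 0 lower. The 3 genes higher in both lines were *Ccdc78*, *Cetn4* and *Poc1a*. *Ccdc78*, linked to deuterosomes, was listed at 0 in negative and at 98.2 TPM in positive cells of the GFP line, and was at 8.25 and 296.8 TPM in the tdTomato line. *Cetn4*, a centrin, was at 33.0 and 134.3 TPM in the GFP line and at 23.1 and 341.9 TPM in the tdTomato line. *Plk4*, the kinase that starts centriole duplication in every cycling cell, had log2 fold changes of -0.89 and -1.20, and *Stil*, its partner, of -1.20 and -2.70. The values in the GFP line depended on the scaling, and with median-ratio scaling they were -0.051 for *Plk4* and -0.39 for *Stil*.

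Genes of the motile axoneme, the known targets of FOXJ1 and RFX factors, were higher in 7 of 18 cases in the GFP line and in 14 of 18 in the tdTomato line, and all 7 were higher in both. At least 2-fold lower were 3 and 1 of the 18. Among all genes 12.8% were higher and 40.5% lower in the GFP line, and 16.2% and 21.9% in the tdTomato line. The median log2 fold changes of the 18 genes were 0.58 and 2.66, against 1.25 and 3.08 for *Foxj1*. With median-ratio scaling, 11 of the 18 were higher and 0 lower in the GFP line, with a median of 1.45, against 2.13 for *Foxj1*. *Ak7*, an adenylate kinase of motile cilia, was at 1.81 and 99.1 TPM in the GFP line and at 3.19 and 389.7 TPM in the tdTomato line. *Dnah5*, a heavy chain of the outer dynein arm, was at 1.55 and 45.4 TPM and at 7.75 and 354.0 TPM. *Dnah11*, another heavy chain, was at 37.4 and 14.8 TPM in the GFP line and at 50.5 and 99.4 TPM in the tdTomato line, so that GFP-positive cells were the low library, as for *Rfx3*. This was so for 6 of the 18 genes, the others being *Rsph9*, *Ccdc39*, *Ccdc40*, *Drc1* and *Zmynd10*, compared with 53.0% of the 16298 genes above 0 TPM in both lines. *Spag6l* was at or below 2.03 TPM in every library.

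The 5 genes whose profile over the 4 libraries was nearest to that of *Foxj1* were *Plch1*, *Dynlrb2*, *Metrn*, *Ttc16* and *Trpv4*. The distance was taken between log2(TPM + 1) values centered on their mean over the 4 libraries, for the 13010 genes that reached 10 TPM in any library, and it was 0.144 for *Plch1* and 0.225 for *Trpv4*. *Dynlrb2* was at 220.2 and 602.1 TPM in negative and positive cells of the GFP line and at 204.0 and 1720 TPM in those of the tdTomato line. Among the regulators *Mcidas* was nearest to *Foxj1*, at rank 374 with a distance of 1.14, and *Rfx3* was farthest, at rank 7119 with a distance of 3.05. *Gmnc* and *Cdc20b* did not reach 10 TPM in any library.

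Markers of other cell types also differed between the sorted libraries. Among all genes 12.8% were higher and 40.5% lower in the GFP line, and 16.2% and 21.9% in the tdTomato line. The 12 markers of mature OSNs were all at least 2-fold lower in GFP-positive cells, while tdTomato-positive cells had 6 that were at least 2-fold lower and 6 that were lower by less, with summed TPM of 27841, 3065, 28641 and 12861 in GFP-negative, GFP-positive, tdTomato-negative and tdTomato-positive cells. Among them *Omp*, which defines mature OSNs, was at 9584, 1108, 10108 and 4427 TPM. *Omp* and *Rfx3* were both lowest in GFP-positive cells, as were 53.0% of all genes, while in the tdTomato line *Omp* was lower and the ratio for *Rfx3* was 1.14 in positive cells. Of 10 markers of gland and secretory cells, *Scgb1a1* was listed at 0 in all libraries, and the summed TPM was 3123, 145929, 10295 and 62649. The other 9 were all higher in GFP-positive cells, while in tdTomato-positive cells 6 were higher and 3 lower. The sum in the tdTomato line was carried by *Bpifa1*, at 6643 and 53377 TPM in negative and positive cells, whereas the lower genes *Bpifb3*, *Bpifb4* and *Muc2* were at 2337 and 20.6 TPM, at 85.4 and 33.4 TPM, and at 12.2 and 3.74 TPM. The 6 markers of sustentacular cells summed to 898.5, 6541, 1415 and 4247 TPM, and all 6 were higher in GFP-positive cells. In the tdTomato line their median log2 fold change was 0.31, with 2 higher and 2 lower, and the sum was carried by *Cyp2a5*, at 745.2 and 3572 TPM in negative and positive cells, whereas *Cyp2g1* was at 248.2 and 84.9 TPM and *Cyp1a2* at 36.9 and 10.9 TPM. All 5 markers of horizontal basal cells were higher in GFP-positive cells and 4 were lower in tdTomato-positive cells, with summed TPM of 53.2, 630.5, 119.8 and 40.3. All 6 leukocyte markers were lower in the positive cells of both lines, with *Ptprc*, the pan-leukocyte marker, at 178.3, 3.14, 194.0 and 1.42 TPM.

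Of the 10 markers of cycling cells, 6 were lower and 1 was higher in positive cells of the GFP line, and 7 were lower and 0 higher in those of the tdTomato line, with summed TPM of 461.0, 202.0, 392.6 and 195.1. The shares of all genes were 12.8% higher and 40.5% lower in the GFP line, and 16.2% higher and 21.9% lower in the tdTomato line. The median log2 fold change of the list in the GFP line was -1.16, and -0.29 with median-ratio scaling, where 2 were lower. *Mki67*, a marker of proliferation, was at 23.4 and 1.56 TPM in negative and positive cells of the tdTomato line, whereas *Myb* was 4.85-fold higher in the positive cells. The 4 remaining lists held markers of immature OSNs, of globose basal cells, of microvillar and tuft cells, and of olfactory ensheathing cells. In this order their median log2 fold changes were -2.16, 1.10, 0.73 and -1.26 in the GFP line and -0.62, -1.30, -0.88 and 1.23 in the tdTomato line. Except for immature OSNs, the members of these lists went both ways. Of the 6 globose basal markers 3 were higher and 2 lower in the GFP line, and 1 and 4 in the tdTomato line. Of the 6 microvillar and tuft cell markers 3 were higher and 1 lower in the GFP line, and 1 and 3 in the tdTomato line. Of the 4 ensheathing cell markers above 0 TPM 1 was higher and 3 lower in the GFP line, and 3 and 1 in the tdTomato line, while the 5 immature OSN markers were all lower in the GFP line and 1 was lower in the tdTomato line. The part of these cell types in the levels of the regulators was not tested. In sorted bulk samples, fewer cells of a type and less RNA of a gene per cell cannot be told apart.

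**Figure D4:**
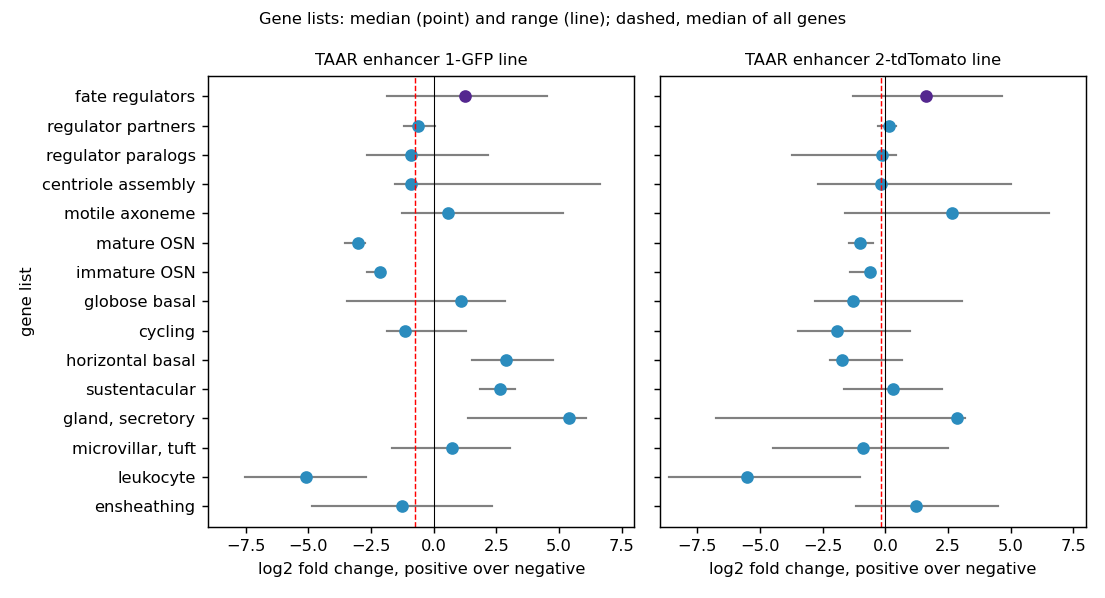
Median (point) and range (line) of the log2 fold change of positive over negative cells for the 10 regulators (top) and 14 other gene lists, for genes above 0 TPM in either library, in the GFP line (left) and the tdTomato line (right), with a dashed line at the median of all genes. The regulators have medians of 1.26 and 1.64, motile axoneme genes 0.58 and 2.66, and mature OSN markers -3.02 and -1.02.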

How the data were processed

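RNA-seq was analysed in 4 libraries, 1 for each sorted group. The authors deposited a TPM value for each gene symbol and library. The submitters' processing notes name mm10, Trimmomatic 0.36 and Salmon 1.4.0, while the methods of the study name Hisat2, Cufflinks and featureCounts for RNA-seq, so the step that gave the TPM values is uncertain, and the annotation is not given in the sources used here. For sorted cells the methods name the Smart-seq2 procedure, which keeps no strand information, while the labels name Vazyme kits. TPM keeps no depth, and the precision of a value is unknown.

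The 10 regulators were the list named above, and 14 other lists with 123 genes were written from general knowledge. The members and lists were chosen with earlier results of these data known. *Dnai1* and *Dnai2* in the axoneme list were matched by older symbols. Named genes are the regulators, genes of these lists with the highest and lowest fold changes or defining roles, and the 5 genes nearest to *Foxj1*, and genes that overlap a regulator were named after their positions were read. Further genes of the axoneme, sustentacular, secretory and cycling lists were named after their values were seen. A pseudocount of 1 and a 2-fold minimum were used, with no filter beyond a value above 0 TPM in either library of a line. Alternatives were pseudocounts of 0.1 and 10, minimums of 1 and 5 TPM, a 4-fold minimum, median-ratio scaling over 11943 genes at or above 1 TPM in every library, and rescaling without the 24 genes among the 10 highest of any library. Leaving out regulators listed at 0 was added after the values were seen. Gene positions are from GENCODE M21 and promoter sequences from RefSeq (GRCm38.p6). Python 3.11.15, NumPy 2.4.6, pandas 2.3.3 and Matplotlib 3.10.9 were used, and the calculations were tested on simulated data.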

Additional observations from a re-analysis of the deposited data

Results flagged for a closer look

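With log2 fold changes written first for the GFP line and then for the tdTomato line, 3 regulators had opposite signs in the 2 lines, and the difference was not tested because each group has 1 library. Among all genes above 0 TPM in both lines 29.3% had opposite signs, and with median-ratio scaling 31.0% of all genes and 2 of the 10 regulators had. The 3 regulators were *Rfx2* with -0.35 and 1.07, *Rfx3* with -1.87 and 0.18, and *Gmnc* with 2.55 and -1.30. The value of *Gmnc* in the GFP line rests on a listing at 0, and that of *Rfx2* in the GFP line changed its sign with the scaling. Of the other genes named, the signs were opposite, also without a test, for *E2f5* with -0.091 and 0.34, *Trp63* with 2.17 and -1.45, *Cetn2* with -0.023 and 1.42, *Spag6l* with 0.49 and -1.60, and the axoneme genes *Dnah11* with -1.28 and 0.96, *Rsph9* with -1.01 and 1.03, *Ccdc39* with -0.56 and 0.97, *Ccdc40* with -1.18 and 0.78, *Drc1* with -0.89 and 1.18, and *Zmynd10* with -0.55 and 1.04. The same held for the sustentacular markers *Cyp2g1* with 2.06 and -1.54 and *Cyp1a2* with 3.02 and -1.67, and for the secretory markers *Bpifb3* with 5.55 and -6.76, *Bpifb4* with 5.37 and -1.33, and *Muc2* with 1.38 and -1.48. With median-ratio scaling the signs were no longer opposite for *E2f5*, *Cetn2*, *Ccdc39* and *Zmynd10*. Of the 118 genes of the other lists above 0 TPM in both lines, 32 had opposite signs as deposited and 41 with median-ratio scaling. The medians of 5 gene lists did the same and were not tested either. They were -0.62 and 0.14 for the partners of multicilin and GEMC1, 1.10 and -1.30 for globose basal cells, 2.90 and -1.72 for horizontal basal cells, 0.73 and -0.88 for microvillar and tuft cells, and -1.26 and 1.23 for olfactory ensheathing cells. The partners had the same sign in both lines with median-ratio scaling, 0.23 and 0.29, and so did the microvillar and tuft cell markers when genes listed at 0 in a library were left out, with -0.11 and -0.88. The medians of the other 3 lists kept opposite signs under the settings tried.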

How the results depend on the processing

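No paired analysis was possible because replicates are lacking, with 1 library in every group, and for the same reason none could be left out. With a pseudocount of 10 in place of 1, the count of regulators at least 2-fold higher in GFP-positive cells was 2 in place of 6, while the share of all genes went from 12.8% to 5.52%, and the median log2 fold change was 0.61 in place of 1.26 in the GFP line and 1.00 in place of 1.64 in the tdTomato line. With median-ratio scaling the median in the GFP line was 2.13. A larger pseudocount shrinks differences of genes with few TPM by its construction, and median-ratio scaling raised the median of all genes by 0.74 in the GFP line and 0.13 in the tdTomato line. The other 26 values of the regulator counts and medians stayed within 1.5-fold. With a 4-fold minimum, 4 regulators were higher in the GFP line and 5 in the tdTomato line, compared with 6.63% and 7.72% of all genes. Of the fold changes of single regulators under alternatives, 57 stayed within 1.5-fold and 23 did not, and among the other lists these numbers were 376 and 44. *Gmnc*, *Mcidas* and *Deup1*, each listed at 0 in a library, depended most on the pseudocount, and *Deup1* ranged from 1.66 to 7.76 in the GFP line. The depth of the libraries is unknown, so whether a listing at 0 reflects few reads could not be determined.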
